A study of Mus musculus with 8 samples.

Results

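Open chromatin around 7 genes of steroid hormone reception was examined in granulosa cells, which line the ovarian follicle, nurse the oocyte and make estradiol. The genes were Pgr, Esr1, Esr2, Nr3c1, Nr3c2, Pgrmc1 and Pgrmc2, chosen by name from 21627 protein-coding genes. Their windows, each the gene body of assembly GRCm38 and 50 kb on either side, held 105 of the 98245 accessible regions of the series. Accessibility was measured by ATAC-seq, in which the Tn5 transposase cuts and tags DNA where chromatin is open. The deposited data are 1 list of peak intervals per library, for 8 libraries in 4 groups of 2.

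Mice were 21 days old and all received 5 IU of eCG (PMSG), a gonadotropin that makes follicles grow. In the LH experiment, wild-type mice of the strain CBA x C57BL/6 F1 were killed 46 h later (the PMSG group) or were given 5 IU of hCG at that time and killed after a further 6 h (the hCG group). The hormone hCG acts on the receptor for luteinising hormone (LH), whose surge triggers ovulation. In the PR experiment, both groups carried the strain name C.129S7(B6)-Pgrtm1Bwo/OmcJ, which names a targeted allele of Pgr. They were wild type (WT) or PR knockout (KO), and the design text places both after hCG. Each library pooled cells of 2 to 3 mice, and the 2 libraries of a group were biological replicates. Titles and time tags disagree in the LH experiment, where libraries titled hCG are tagged 0 h and those titled PMSG 6 h. Titles and source names were followed here, so every direction between hCG and PMSG rests on them. The PR libraries carry a 6 h tag beside a source name of pre-ovulatory cells. Strain, and possibly the way reads were processed, changes from one experiment to the other, so these cannot be told apart in a comparison between them.

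Steroid receptors are nuclear proteins that bind a lipid hormone and then act on DNA as transcription factors. The progesterone receptor, encoded by Pgr, is induced in granulosa cells by the LH surge and is required for ovulation, while the estrogen receptors act earlier, during follicle growth. The glucocorticoid and mineralocorticoid receptors respond to adrenal steroids, and the PGRMC proteins are membrane-associated haem-binding proteins of another family that have been linked to progesterone action.

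The lists held between 55654 (KO replicate 2) and 84313 (WT replicate 2) intervals on chromosomes 1 to 19 and X. They covered between 29.9 Mb (PMSG) and 43.9 Mb (WT replicate 1), and on average hCG covered 1.29 times the sequence of PMSG and WT 1.24 times that of KO. Read depth is unknown, and an interval missing from a list may reflect sensitivity. Counts are therefore also given with 55654 intervals from every list, those with the highest column 7 (the fold enrichment of a peak), called the equal-number setting below. All 9 granulosa markers examined besides Esr2, Foxl2, Fshr, Inha and Cyp19a1 among them, had an interval within 1 kb of a start site or gene end in all 8 libraries. Of markers of other cells, Insl3 (theca), Bmp15, Zp3 and Figla (oocyte), Ptprc, Adgre1 and Cd3e (leukocyte), Pecam1 and Tek (endothelium) and Muc16 (epithelium) had none in any list. Gdf9 (oocyte), Cdh5 (endothelium), Krt8 and Epcam (epithelium) had one in all 8, Cyp17a1 (theca) in 2, PMSG replicate 2 and WT replicate 1, and Cd68 (leukocyte) in both hCG libraries alone. The part of other cells in the results was not tested.

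Every start site examined lay in a merged region that all 8 libraries held, and the sequences upstream differ in base composition. The promoter table of RefSeq, build GRCm38.p6, matched 6 of the 7 genes with 7 start sites, 2 of them in Esr1. The 250 bases that end just before the start site are shown for the targeted gene Pgr, both start sites of Esr1, Esr2 and Pgrmc1, as the gene targeted in the study, the gene with a pair of start sites, and 1 further nuclear and 1 membrane-associated protein. They lie at chr9:8899583-8899832 (plus strand) for Pgr, chr10:4611739-4611988 and chr10:4709908-4710157 (plus) for Esr1, chr12:76177260-76177509 (minus) for Esr2 and chrX:36597943-36598192 (plus) for Pgrmc1. Capitals mark matches, on either strand, to any of 9 motifs, namely the GC box GGGCGG, the CCAAT box, the TATA box TATAAA, the E-box CACGTG, the nuclear receptor half-site AGGTCA, the steroid receptor half-site AGAACA, the AP-1 site TGANTCA, the RUNX site TGTGGT and the C/EBP-like site TTGCAT. No matches overlap in the printed sequences.
Pgr: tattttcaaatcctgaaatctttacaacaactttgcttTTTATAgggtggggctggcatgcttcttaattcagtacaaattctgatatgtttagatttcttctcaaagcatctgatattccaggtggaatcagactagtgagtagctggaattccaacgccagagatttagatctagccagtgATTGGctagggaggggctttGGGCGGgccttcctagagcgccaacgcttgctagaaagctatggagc
Esr1 first start site: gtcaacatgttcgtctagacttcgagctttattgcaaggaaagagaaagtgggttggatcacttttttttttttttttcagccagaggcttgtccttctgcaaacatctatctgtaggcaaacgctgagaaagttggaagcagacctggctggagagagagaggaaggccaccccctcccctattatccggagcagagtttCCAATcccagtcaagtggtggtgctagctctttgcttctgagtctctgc
Esr1 second start site: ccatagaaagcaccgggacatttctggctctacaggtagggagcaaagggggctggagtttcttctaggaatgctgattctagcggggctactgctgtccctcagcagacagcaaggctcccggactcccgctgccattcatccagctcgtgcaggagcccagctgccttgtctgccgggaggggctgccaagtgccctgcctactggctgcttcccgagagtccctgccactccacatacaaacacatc
Esr2: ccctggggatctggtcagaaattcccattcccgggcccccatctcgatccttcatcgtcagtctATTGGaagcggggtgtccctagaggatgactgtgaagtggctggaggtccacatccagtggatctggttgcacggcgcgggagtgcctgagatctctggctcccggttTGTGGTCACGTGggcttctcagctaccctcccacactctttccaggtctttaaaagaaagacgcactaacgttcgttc
Pgrmc1: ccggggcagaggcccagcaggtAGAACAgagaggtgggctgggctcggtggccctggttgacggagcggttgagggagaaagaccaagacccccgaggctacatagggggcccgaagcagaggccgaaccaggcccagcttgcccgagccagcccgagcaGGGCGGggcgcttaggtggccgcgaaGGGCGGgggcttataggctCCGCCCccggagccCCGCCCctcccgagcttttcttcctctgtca

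GC content was 43.6% upstream of Pgr, 47.6% and 59.6% upstream of the first and second Esr1 start sites, 56.4% for Esr2, 68.4% for Nr3c2, 69.6% for Pgrmc1 and 67.2% for Pgrmc2, against a median of 52.4% over 32851 promoters. CpG dinucleotides numbered 4 for Pgr and 18 for Pgrmc1, against a median of 6. The Pgr sequence held TATAAA, with its first base 212 bases before the start, CCAAT 67 bases before it and GGGCGG 47 bases before it. The Esr2 sequence held TGTGGT and CACGTG side by side, at 78 and 72 bases, and CCAAT at 186 bases. Pgrmc1 held GGGCGG at 4 places and AGAACA at 228 bases. Among all promoters, GGGCGG occurs in 32.7%, CCAAT in 33.9%, AGAACA in 16.1%, TGTGGT in 14.1%, AGGTCA in 14.0%, TATAAA in 12.4%, TTGCAT in 9.46%, TGANTCA in 6.75% and CACGTG in 6.02%. These matches describe letters and not binding.

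All 7 start sites lay in regions held by all 8 libraries, as did 42.9% of 32580 start sites in the table. Over all regions of the series, 37.9% were held by all 8 libraries, and 37 of the 105 regions around the receptors were (35.2%). Pgrmc1 had the most uniform window, with 7 of 9 regions in every library, followed by Esr1 with 11 of 26, Nr3c1 with 3 of 9, Nr3c2 with 4 of 12, Esr2 with 9 of 30, Pgrmc2 with 1 of 6 and Pgr with 2 of 13. Gene bodies held 54 of the 105 regions and flanks 51, and 22 lay inside another protein-coding gene, 13 of them in the Esr2 window (in Syne2 and Tex21).

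**Figure D1:**
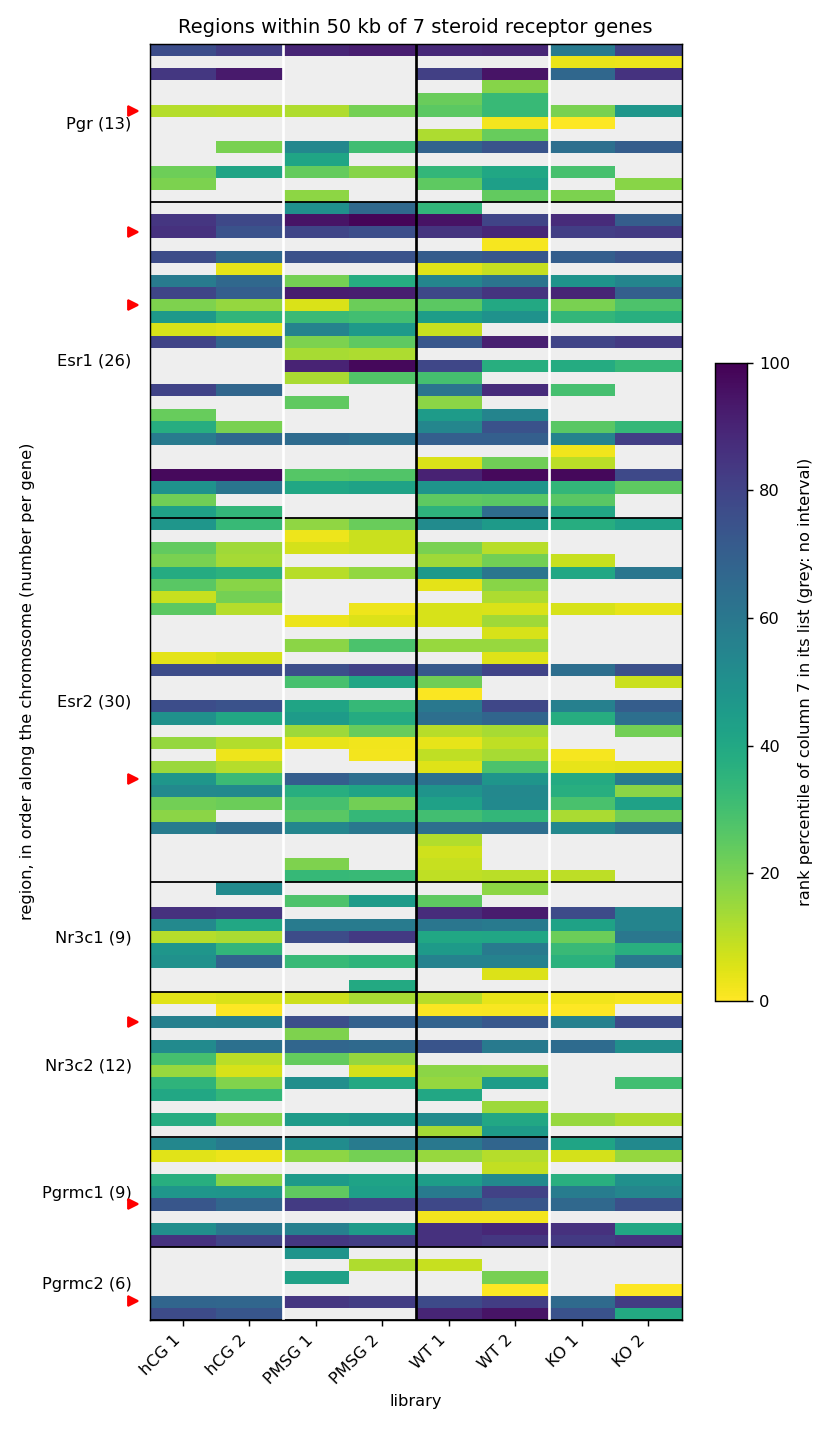
Heat map of the 105 regions (rows, by gene and in chromosome order) in 8 libraries (columns), coloured by the rank percentile of the authors' fold within its list. Grey cells have no interval and red arrowheads mark start-site regions, which are coloured in all 8 columns for 6 genes.

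The share of a window in open intervals differed widely between genes. It was highest around Esr2, at between 5.82% and 7.72% of a window of 157 kb over the 8 libraries. That window also takes in parts of Syne2 and Tex21, which hold 13 of its 30 regions. The share was lowest around Nr3c2, the mineralocorticoid receptor, at between 0.729% and 1.18% of a window of 447 kb. In covered bases, both hCG libraries exceeded both PMSG libraries in all 7 windows, with ratios of group means from 1.08 (Nr3c2) to 1.31 (Pgrmc2), where the lists as a whole gave 1.29. Scaled to the covered length of its library, the hCG groups lay below PMSG around Esr1, Esr2 and Nr3c2, and overlapped it around the other 4 genes. The hCG excess in bases was thus no larger than that of the whole lists except at Pgrmc2, where the scaled groups overlapped. The share of all gene windows that set the groups apart in this way was not computed, so these counts have no background. With an equal number of intervals the order depended on the gene. Both hCG libraries still exceeded both PMSG libraries around Esr1, Esr2, Pgrmc1 and Pgrmc2, the groups overlapped around Nr3c1, and hCG was lower around Pgr (1505 and 1657 bp against 3493 and 3121 bp) and Nr3c2 (2958 and 2257 bp against 4031 and 3847 bp). At Pgr this setting dropped the start-site region from both hCG lists and from neither PMSG list, and with all intervals hCG covered 3814 and 4110 bp.

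**Figure D2:**
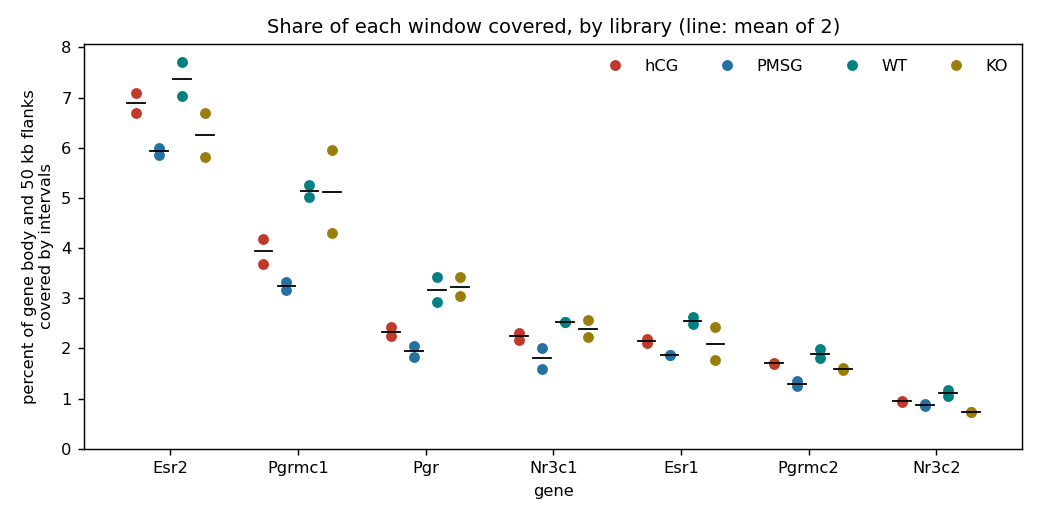
Percent of each gene's window (gene body and 50 kb flanks, y axis) covered by intervals in each library (dots) with the mean of the 2 libraries of a group (lines), genes in order of their mean. Esr2 lies highest, and Nr3c2 lowest, in all 4 groups.

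In the PR experiment the window of Nr3c2 had the highest ratio of WT to KO among the 7 genes. WT covered 4665 and 5259 bp and KO 3294 and 3256 bp, a ratio of 1.52 against 1.24 for the whole lists, and WT stayed above KO after scaling to the library (ratio 1.21). With an equal number of intervals the groups overlapped, at 2332 and 2921 bp in WT and 1874 and 3256 bp in KO. Around Pgr, WT covered 4956 and 5814 bp and KO 5799 and 5172 bp, so the groups overlapped. Per Mb of library, the Pgr window had 113 and 133 bp in WT and 149 and 163 bp in KO, with both KO libraries higher. With equal numbers both KO libraries were also higher in bases, at 4165 and 5172 bp against 2064 and 2326 bp, in a setting that dropped the start-site region from WT as given below. The same order, KO above WT after scaling, held around Nr3c1 and Pgrmc1 (ratios of WT to KO of 0.852 and 0.813). No share of all gene windows was computed for these orders, so they are not set against a background. With 2 libraries against 2 an exact two-sided permutation test cannot give a p under 0.333, so no difference here was tested.

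Pgr, which encodes both isoforms of the progesterone receptor, was open just downstream of its start site before and after hCG. Its start-site region (chr9:8899769-8902114, start site at 8899833) was covered over 2150 and 2281 bp in hCG, 1939 and 2020 bp in PMSG, 2301 and 2206 bp in WT and 1999 and 1754 bp in KO. The hCG libraries lay above the PMSG libraries and the WT libraries above the KO libraries in covered bases. In the 4 LH libraries the interval itself began between 1 and 170 bp after the start site, and in the PR libraries between 12 and 64 bp before it. The region was long but low in fold. Its rank percentile by fold (100 marks the highest fold of a list) was 10.98 and 10.56 in hCG, 12.03 and 20.89 in PMSG, 25.3 and 32.8 in WT, and 19.96 and 47.4 in KO. By column 9, the significance, it stood at percentiles between 44.8 and 83.0. The equal-number setting therefore dropped it from both hCG and both WT lists and kept it in the other 4, whereas taking the same number by column 9 kept it in all 8.

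The interval at the Pgr start site was unbroken in the 4 LH and both WT libraries and was in 2 pieces in both KO libraries. In KO replicate 1 the first piece ran from 64 bp before the start site to 1212 bp after it, and the second from 1485 to 2206 bp. In KO replicate 2 the first piece ran from 57 bp before to 1212 bp after, and the second from 1607 to 2090 bp. The gap was 272 bp in one and 394 bp in the other, and it began at the same base in both. Among 10869 start-site regions held by all 4 PR libraries, 46 (0.423%) showed 1 interval in both WT and 2 or more in both KO, and 9 of those 46 had an edge at the same base in both KO lists. Over all intervals of the KO lists, and not start-site regions alone, 2176 upper ends were shared (3.70% and 3.91% of their intervals). Why edges coincide was not tested. The gap remained in both KO libraries with only intervals of a −log10 q of 20 or more and with equal numbers by column 9. With equal numbers by column 7, KO replicate 1 lost its second piece, so only KO replicate 2 still showed 2 pieces. An open start site says nothing on whether the gene makes a protein, and the position of the targeted change is not given in the sources used here.

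**Figure D3:**
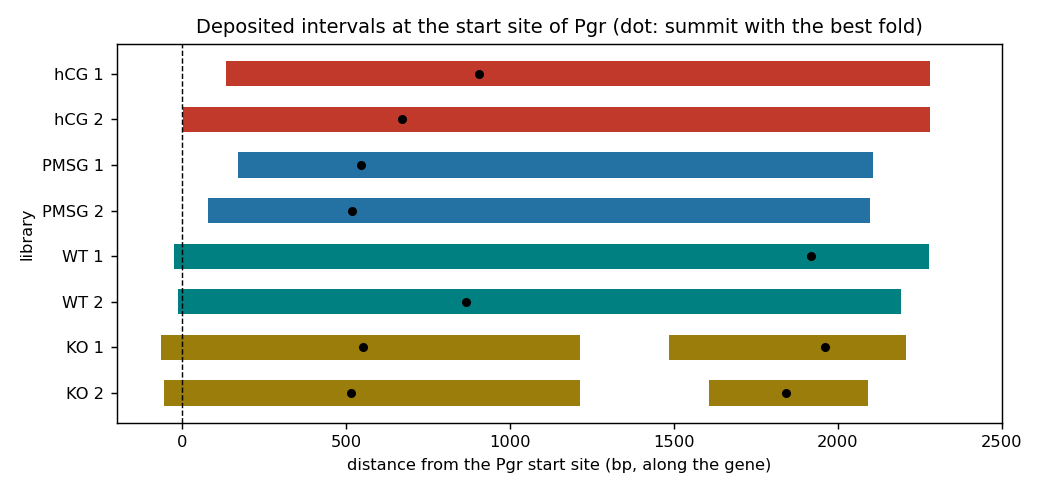
Deposited intervals (bars) at the start site of Pgr in each library against distance from the start site in bp, with a dot at the summit of the best fold in each interval. Both KO libraries show a gap that begins 1213 bp after the start site and ends at 1484 bp (KO replicate 1) or 1606 bp (KO replicate 2), where the other 6 libraries are continuous.

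Upstream of Pgr, a region 23.1 kb before the start site (chr9:8876354-8877064) separated PMSG from all libraries taken after hCG. It was covered over 542 and 692 bp in hCG, 549 and 643 bp in WT and 711 and 636 bp in KO, and neither PMSG library held an interval there. Its fold ranked high, at percentiles of 83.7 and 92.7 in hCG, 81.0 and 94.6 in WT and 66.6 and 85.4 in KO. It kept this pattern in both equal-number settings. The only other region of the Pgr window in all 8 libraries, 31.4 kb before the start (chr9:8867527-8869359), covered 829 and 783 bp in hCG, 621 and 523 bp in PMSG, 724 and 1086 bp in WT and 1403 and 1823 bp in KO. It was longer in both hCG than in both PMSG, and in both KO than in both WT.

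Between these, at 28.7 kb before the start (chr9:8871011-8871322), both KO libraries held a short interval of 232 and 300 bp that no other library held. Its rank percentiles of 3.26 and 3.09 put it among the weakest of the lists, and the equal-number setting dropped it in KO replicate 1, while the setting by column 9 kept it in both. With all intervals it was the only KO-only region around the 7 genes. KO-only regions were 0.0802% of all regions tested in the PR experiment (73 of 91017), and 28 regions (0.0285%) were held by both KO libraries and none of the other 6. Pgr also had WT-only regions 4.41 kb before (chr9:8895343-8895511) and 10.7 kb after (chr9:8910440-8910618) the start site, with ranks between 12.5 and 32.8, and neither kept the call with an equal number of intervals by column 7. By column 9 the first of them kept it. A region 37.9 kb into the gene (chr9:8937392-8938112) was missing only in hCG replicate 1 and covered between 184 and 721 bp in the others.

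Across the 7 genes, the LH comparison gave calls in both directions at about the rate of the genome. A region was called hCG-only if both hCG lists held it and neither PMSG list did, and the reverse for PMSG-only. Of the 87 regions tested, 13 were hCG-only (14.9%, against 17.6% of all regions) and 11 were PMSG-only (12.6%, against 10.3%). In the equal-number setting, 12 of 82 were hCG-only (15.3% of all regions) and 13 of 82 PMSG-only (13.4% of all regions). The counts are thus near the background and say nothing particular about steroid receptors as a class.

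**Figure D4:**
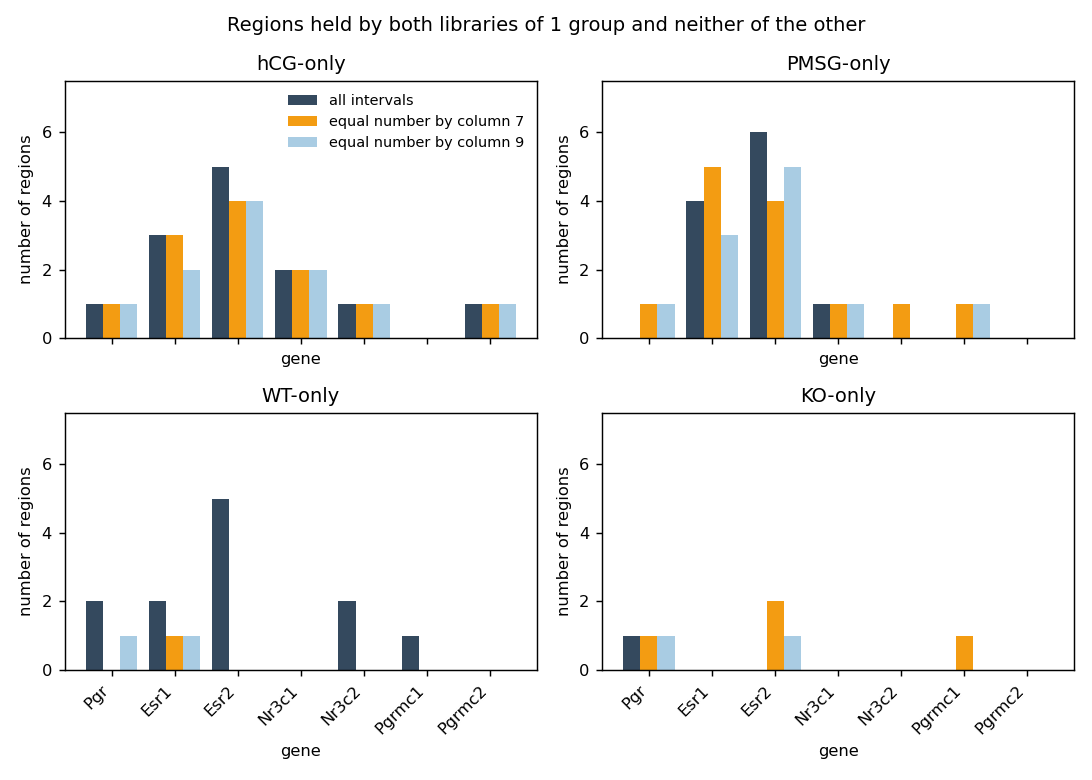
Number of regions (y axis) held by both libraries of 1 group and neither of the other, per gene, with all intervals and with the same number from every list by column 7 or column 9. The calls of the LH experiment concentrate in Esr1 and Esr2, which have the most regions, and most WT-only calls are absent with equal numbers.

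Of the 13 hCG-only regions, WT replicates 1 and 2 held 11 and 12, and KO replicates 1 and 2 held 9 and 6. Of all hCG-only regions these lists held 79.7%, 91.2%, 62.9% and 44.3%. Of the 11 PMSG-only regions, WT held 9 and 5 and KO 2 and 3, where all PMSG-only regions gave 76.2%, 45.6%, 20.8% and 34.1%. Regions held by all 6 libraries after hCG and by neither PMSG library numbered 6 of 105, against 5.88% of all regions. They were the Pgr region at 23.1 kb, 1 region each of Esr1, Esr2 and Pgrmc2, and 2 of Nr3c1. The reverse, both PMSG and none of the 6, was met by 2 of 105 (1.68% of all regions), 1 in Esr1 and 1 in Esr2. With equal numbers by column 7 both patterns were met by 5 of 86, against 5.18% (after hCG) and 4.19% (PMSG) of all regions. Of the 5 PMSG regions 3 lay in the Esr1 window and 1 each in those of Esr2 and Nr3c1.

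Esr1 encodes estrogen receptor alpha and has 2 start sites in the table, of which the first was the more open. The region of the first (chr10:4611539-4612945) covered between 1283 and 1391 bp in all 8 libraries and ranked between the percentiles 74.8 and 88.8. The region of the second (chr10:4709754-4710355) covered 409 and 542 bp in hCG, 251 and 346 bp in PMSG, 511 and 602 bp in WT, and 477 and 482 bp in KO, at percentiles between 5.76 and 39.8. The hCG libraries lay above the PMSG libraries there, and the KO libraries below the WT libraries. The highest-ranking region held by all 8 lay 13.4 kb before the first start site (chr10:4598385-4598833), with a mean percentile of 86.1 and between 292 and 434 bp covered.

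In the Esr1 window, hCG and PMSG differed at both called and shared regions. Of the 23 regions of the Esr1 window tested, 4 were PMSG-only (17.4%, against 10.3% of all regions), and with equal numbers 5 of 22 were (22.7%, against 13.4%). All 4 kept the call with equal numbers by column 7. The first, 39.7 kb before the gene (chr10:4572058-4572445), covered 308 and 381 bp in PMSG and was also in WT replicate 1. The second (chr10:4781241-4781635, 395 and 364 bp) was in no other library. The third (chr10:4786940-4787392) ranked at the percentiles 89.9 and 97.7 in PMSG, with 271 and 321 bp, and was held by all 4 PR libraries with 453 and 195 bp in WT and 192 and 214 bp in KO. The fourth (chr10:4824887-4825305) covered 170 and 326 bp in PMSG, was also in WT replicate 1, and lost the call by column 9, which left it in PMSG replicate 2 alone.

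The reverse call, hCG-only, was made at 3 of the 23 regions (13.0%, against 17.6% of all regions) and at the same 3 of 22 with equal numbers (13.6%, against 15.3%). At chr10:4897514-4898080 the hCG libraries covered 567 and 559 bp, WT 531 and 567 bp and KO replicate 1 455 bp, and KO replicate 2 had none. At chr10:4955209-4955437 all 6 libraries after hCG held an interval, of 196 and 165 bp in hCG, 206 and 229 bp in WT and 171 and 139 bp in KO, and by column 9 the call was lost with the interval of hCG replicate 2. At chr10:5039366-5039607, 33.9 kb beyond the gene and inside Syne1, hCG covered 214 and 217 bp, and KO replicate 2 again had none. KO replicate 2 had the shortest list.

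Shared regions of Esr1 also changed in length. At chr10:4776210-4777261, 66.6 kb after the second start site, hCG covered 770 and 793 bp and PMSG 214 and 202 bp, with 652 and 909 bp in WT and 982 and 822 bp in KO. At chr10:4983820-4984418, 274 kb after it, hCG covered 572 and 433 bp and PMSG 150 and 154 bp, with 256 and 349 bp in WT and 585 and 224 bp in KO. In both, each hCG library was at least 2 times longer than either PMSG library. This held for 2 of the 43 regions that all 4 LH lists shared around the 7 genes, against 5.61% of all such regions, a share near the background. By any length, 22 of the 43 were longer in both hCG than in both PMSG (51.2%, against 64.2% of all regions) and 10 longer in both PMSG than in both hCG (23.3%, against 11.8%), 4 of these around Nr3c2.

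**Figure D5:**
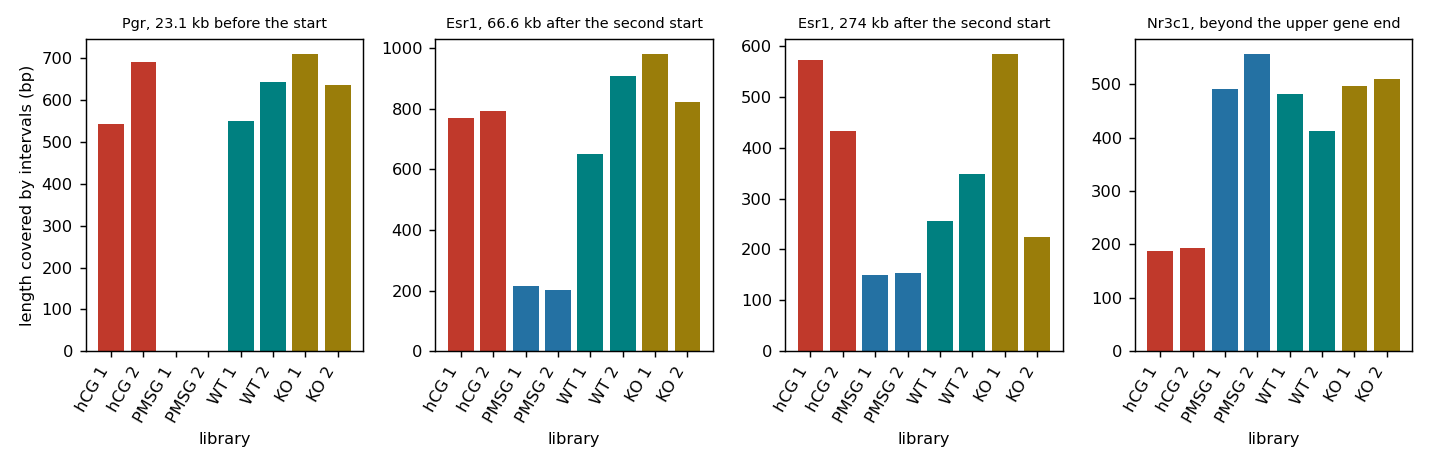
Covered length in bp (bars, from 0) per library at 4 regions of Pgr, Esr1 and Nr3c1. PMSG has no interval at the Pgr region, is the shortest group at both Esr1 regions, and at the Nr3c1 region covers 491 and 557 bp where hCG covers 188 and 194 bp.

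Esr2 encodes estrogen receptor beta, the estrogen receptor that granulosa cells express most. Its start-site region (chr12:76176818-76178080) covered 1185 and 1123 bp in hCG, 1104 and 1072 bp in PMSG, 843 and 942 bp in WT and 1249 and 1237 bp in KO. Both KO libraries were longer than both WT libraries. The KO intervals ran from 807 bp upstream of the start to 441 and 429 bp downstream of it. In WT replicate 1 the interval ran from 512 bp upstream to 330 bp downstream. WT replicate 2 held 1 piece from 516 bp upstream to 282 bp downstream and another from 817 to 675 bp upstream, with a gap of 158 bp between them, and both equal-number settings dropped the second of these. Ranks of the start-site region were 47.3 and 32.0 in hCG and 70.0 and 63.5 in PMSG. Of the 7 start-site regions 5 (Pgr, Esr2, Nr3c2, Pgrmc1 and Pgrmc2) ranked higher in both PMSG than in both hCG and none the other way, against 51.6% and 17.3% of 10790 start-site regions, in lists of different length.

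Of the 26 regions of the Esr2 window tested in the LH experiment, 5 were hCG-only (19.2%, against 17.6% of all regions) and 6 PMSG-only (23.1%, against 10.3%). These were the highest counts of the 7 genes with all intervals. With equal numbers by column 7, 4 of 23 were hCG-only (17.4%, against 15.3%) and 4 of 23 PMSG-only (17.4%, against 13.4%). In that setting Esr1 had more PMSG-only regions, 5 of 22. The 2 hCG-only regions that kept the call with equal numbers lie in Syne2, at chr12:76087163-76087521 (222 and 357 bp in hCG) and chr12:76094123-76094518 (396 and 348 bp). The hCG-only region closest to the start site, 3.22 kb downstream of it (chr12:76173701-76174383), covered 612 and 683 bp in hCG, 440 and 637 bp in WT and 580 and 588 bp in KO. It ranked at percentiles of 28.1 or less, and the equal-number setting dropped it from hCG replicate 1 and 3 of the PR libraries, while the setting by column 9 kept it in all 6. The PMSG-only regions that kept the call were 4, at chr12:76117721-76117959, chr12:76145661-76145972, chr12:76162640-76162991 and chr12:76214803-76215394, with between 161 and 361 bp covered in PMSG. All 4 were held by WT replicate 1 as well, and the last of them lies in Tex21. The PMSG-only regions that lost the call in the equal-number setting lie in Syne2. The highest-ranking region held by all 8 lay 44.4 kb downstream of the start site (chr12:76132414-76133354), with between 809 and 939 bp covered and a mean percentile of 75.2.

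Nr3c1 encodes the glucocorticoid receptor. Its body on chromosome 18 (39410545-39519421) held a wide region (chr18:39489013-39491761) covered over between 2241 and 2618 bp in all 8 libraries, at a mean percentile of 53.3. The region chr18:39483637-39484054 covered 391 and 403 bp in hCG, 356 and 413 bp in WT and 410 and 299 bp in KO, and none in PMSG. It ranked at percentiles between 55.0 and 92.3. Beyond the upper gene end by 4.19 kb, chr18:39523164-39524057 covered 614 and 733 bp in hCG, 806 and 878 bp in WT and 772 and 523 bp in KO, and none in PMSG. Both kept the pattern with equal numbers.

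Next to it the order was the reverse. The region chr18:39521361-39521917, 2.22 kb beyond the upper gene end, covered 188 and 194 bp in hCG and 491 and 557 bp in PMSG, with 482 and 413 bp in WT and 497 and 509 bp in KO. In length the hCG libraries were the low ones, and the 4 PR libraries, although taken after hCG, lay closer to PMSG. In rank the percentiles were 11.2 and 12.8 in hCG, 76.8 and 83.1 in PMSG, 40.5 and 40.7 in WT and 22.5 and 60.4 in KO, so that 3 of the 4 PR libraries lay closer to hCG and KO replicate 2 closer to PMSG. A shared region at least 2 times longer in both PMSG than in both hCG was 0.461% of all regions held by the 4 LH libraries, and this was the 1 among 43 around the 7 genes. In the equal-number setting hCG replicate 1 lost its interval here, while the setting by column 9 kept the region in every library. The PMSG-only region chr18:39408466-39408695 covered 217 and 230 bp, was also held by WT replicate 1 and kept the call with equal numbers.

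Nr3c2, the gene of the mineralocorticoid receptor, had few regions for its length, 12 in a window of 447 kb. Its start-site region (chr8:76901625-76902623) covered 844 and 795 bp in hCG, 670 and 748 bp in PMSG, 973 and 994 bp in WT, and 945 and 994 bp in KO, and it was also the highest-ranking region of this window held by all 8. Both hCG libraries were longer than both PMSG libraries, and WT and KO overlapped. One region, chr8:77116603-77117077, was held by all 4 LH libraries (between 408 and 434 bp) and by no PR library, a pattern of 0.368% of all regions and met by 1 of 105 here. In both equal-number settings hCG replicate 2 lost its interval, and with it the pattern. The hCG-only region chr8:77132923-77133142 (164 and 220 bp) kept the call with equal numbers and was also in WT replicate 1.

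Pgrmc1 and Pgrmc2 encode the membrane-associated progesterone receptor components. At Pgrmc1 no region was called in the LH experiment with all intervals. Its start-site region (chrX:36597708-36599323) covered 1046 and 1050 bp in hCG and 684 and 756 bp in PMSG, with 1225 and 1139 bp in WT and 1517 and 845 bp in KO. The hCG libraries exceeded the PMSG libraries, and both hCG and both WT libraries held a second short piece that began between 829 and 977 bp after the start site. Both equal-number settings, and a −log10 q of 20 or more, dropped this piece from all 4. The KO libraries differed, as replicate 1 had a single interval of 1517 bp and replicate 2 one of 845 bp. A start-site region in 2 or more pieces in both WT and 1 in both KO was 1.08% of those held by the 4 PR libraries. The highest-ranking region of the window, chrX:36644552-36645618, at between 912 and 1041 bp, holds the start site of Akap17b.

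At Pgrmc2 the start-site region (chr3:41082448-41083956) covered 1504 and 1494 bp in hCG, 1272 and 1217 bp in PMSG, 1484 and 1484 bp in WT, and 1509 and 1484 bp in KO. PMSG was the shortest group, and the other 6 libraries lay between 1484 and 1509 bp. It was the only region of the Pgrmc2 window in all 8 libraries. A region 43.5 kb upstream of the start site (chr3:41126266-41126799) covered 469 and 510 bp in hCG, 451 and 485 bp in WT and 379 and 206 bp in KO, and none in PMSG. It ranked at percentiles between 39.2 and 94.75 and kept the pattern with equal numbers.

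In the PR comparison, nearly all calls with all intervals were WT-only, and most of these were absent with equal numbers. Of the 98 regions tested around the 7 genes, 12 were WT-only (12.2%, against 12.1% of all regions) and 1 was KO-only. The WT-only regions were 5 in the Esr2 window, 2 each in those of Pgr, Esr1 and Nr3c2, and 1 in that of Pgrmc1. With equal numbers by column 7, 1 of 65 was WT-only and 4 of 65 were KO-only, against 4.26% and 4.15% of all regions. By column 9 the counts were 2 and 2 of 65, against 2.79% and 2.49%. The 1 region WT-only in all 3 settings was chr10:4943194-4943407 in Esr1, with 198 and 214 bp in WT, 166 bp in hCG replicate 1 and none elsewhere. The 4 KO-only regions of the column 7 setting were the Pgr start-site region, 2 of Esr2 and 1 of Pgrmc1, and with all intervals both WT lists held each of them. No region around the 7 genes was at least 2 times longer in 1 genotype, with 0 of 47 in either direction against 0.376% (WT longer) and 0.127% (KO longer) of all regions. By any length, 11 of the 47 were longer in both WT than in both KO (23.4%, against 34.8%) and 7 longer in both KO than in both WT (14.9%, against 5.89%). The 7 were 4 regions of Esr2, 2 of Nr3c1 and 1 of Pgr.

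Regions around genes related to these receptors were counted in the same way. The first list held 8 genes, the membrane receptors Gper1, Paqr5, Paqr6, Paqr7, Paqr8 and Paqr9, and Nenf and Cyb5d2, relatives of the PGRMC genes. Of its 95 regions tested in the LH experiment, 19 were hCG-only (17.6% of all regions) and 5 PMSG-only (5.26%, against 10.3%). With equal numbers 14 of 88 were hCG-only (15.9%, against 15.3%) and 5 PMSG-only (5.68%, against 13.4%). Regions that kept the hCG-only call lay around Gper1, Paqr5, Paqr6, Paqr7, Paqr8, Paqr9 and Cyb5d2, and those that kept the PMSG-only call around Gper1, Paqr5 and Nenf. In the PR experiment 12 of 105 were WT-only (11.4%, against 12.1%), 4 of 82 by column 7 (4.88%, against 4.26%) and 1 of 78 by column 9 (1.28%, against 2.79%). KO-only regions numbered 0 of 105, 1 of 82 (1.22%, against 4.15%) and 0 of 78. The 4 WT-only regions by column 7 were 1 region each around Paqr6, Paqr8, Nenf and Cyb5d2, and the regions of Paqr8 and Cyb5d2 were also hCG-only. The second list held 12 chaperones and immunophilins that fold steroid receptors, among them Hsp90ab1, Fkbp4, Fkbp5 and Ptges3. Of 134 regions tested there, 18 were hCG-only (13.4%, against 17.6% of all regions) and 4 PMSG-only (2.99%, against 10.3%). With equal numbers 11 of 114 were hCG-only (9.65%, against 15.3%) and 10 PMSG-only (8.77%, against 13.4%). In the PR experiment 7 of 144 were WT-only (4.86%, against 12.1%) and 0 KO-only. With equal numbers by column 7, 1 of 117 was WT-only (0.855%, against 4.26%) and 8 were KO-only (6.84%, against 4.15%), and by column 9 these were 1 and 4 of 118 (0.847% and 3.39%, against 2.79% and 2.49%). The 1 WT-only region by column 7 lay around St13 and was also hCG-only with all intervals and with equal numbers. Kept hCG-only calls lay around Hsp90ab1, Fkbp4, Fkbp5, Ptges3, St13, Bag1 and Hspa4, and kept PMSG-only calls around Fkbp4, Fkbp5, Bag1 and Hspa4.

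The genes whose windows followed each receptor most closely over the 8 libraries, by Pearson's r of covered length as a share of the library's, are given as a description. For Pgr these were Nudt6 (0.97), Adh7 (0.96) and Ankrd66 (0.96) of 17140 genes compared, and 0.327% of genes exceeded 0.9. For Esr1 they were Olfr94, Ubd and Hcrtr1 (from 0.95 to 0.97), and for Esr2 they were Rnf6, Itgal and Pex13 (0.99 each), where 2.96% of genes exceeded 0.9. Nr3c1 was closest to Fcgr1 (0.98), Nr3c2 to Cst7 (0.98), Pgrmc1 to Tnc (0.98) and Pgrmc2 to Zfp760 (0.94). For these and Esr1 the share of genes over 0.9 lay between 0.0875% and 0.438%. The points are 8 libraries of 2 experiments and share list length and strain, so r has no test.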

How the data were processed

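ATAC-seq peak lists of 8 libraries were used, grouped by title. Per the submitters' processing notes, Bowtie2, MACS2 and the build mm10 were used, without versions. Peak names of the PR lists mention filtering and marked duplicates and those of the LH lists do not, and a shift of reads for the Tn5 cut is not given in the sources used here. Column 7 of the deposited lists is the authors' fold, a ratio used only within a list. Columns 8 and 9 of the deposited lists hold −log10 p and q values, with no −log10 q under 10, and the deposited score in column 5 was not used. The lists hold no read numbers.

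Summits sharing an interval were taken as 1 interval with its best fold and q. Intervals of the 8 lists on chromosomes 1 to 19 and X sharing 1 bp or more were merged into 98245 regions (Python 3.11.15, pandas 2.3.3, numpy 2.4.6), and a region counted as held by each library with an interval in it. Gene bodies came from RefSeq assembly GRCm38.p6. Calls were checked on simulated lists. The genes and lists were chosen with earlier results of these data known. One gene of a related list is not reported here and was left out of its counts. Named regions are, for each gene, the start-site region, the highest-ranking region in all 8 libraries and those called in 1 group with all and with equal numbers of intervals. The regions at least 2 times longer in 1 group, those held by 1 experiment or by all 6 libraries after hCG, the KO-only and WT-only regions of Pgr, its region at 37.9 kb, the Esr2 region at 3.22 kb and the Nr3c2 window were singled out after their values were seen. Alternatives were equal numbers of intervals, a −log10 q of 20, 25% coverage of a region, merging within an experiment, other flanks and leaving out each library.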

Additional observations from a re-analysis of the deposited data

How the results depend on the processing

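Read depth is unknown and the lists differ in length, which limits every comparison of presence, and no region was tested. The flank changes the number of regions counted. With the gene body alone there were 6 hCG-only, 5 PMSG-only, 6 WT-only and 0 KO-only regions. With 10 kb flanks there were 7 hCG-only, 7 PMSG-only and 0 KO-only regions, and with 100 kb flanks 24 hCG-only and 21 WT-only. Equal numbers of intervals left 1 WT-only region by column 7 and 2 by column 9, and gave 4 and 2 KO-only regions, against 12 and 1 with all intervals. Leaving out each library in turn gave between 13 and 16 hCG-only, 12 and 18 PMSG-only, 15 and 23 WT-only and 1 and 2 KO-only regions, since fewer lists must then satisfy a call. The counts of PMSG-only regions moved most without PMSG replicate 2 (18), and those of WT-only regions without WT replicate 1 (22), WT replicate 2 (23) or KO replicate 1 (21), and those of KO-only regions without KO replicate 2 (2). A −log10 q of 20 or more, 25% coverage of a region and merging within the experiment kept all 4 counts within 1.5 times. Equal numbers of intervals for the gap at the Pgr start site were chosen after seeing the data. They left it at 272 and 394 bp by column 9, and by column 7 it could be measured in KO replicate 2 alone (394 bp). No paired analysis was possible because the labels do not tie a replicate number of one group to the same number in another.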
